A study of Drosophila melanogaster with 8 samples.

Results

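Zelda, GAGA factor and 6 other genes for transcription factors and JAK/STAT signalling of the early Drosophila embryo were followed through embryonic age and maternal genotype. The set was named by gene, and the naming rule used no measured value. Earlier results of these data were known when genes and lists were chosen. The members were FBgn0259789 (Zelda, here zld, listed under its older symbol vfl), Trl (GAGA factor), psq (Pipsqueak), CG1832 (the protein CLAMP), grh (Grainy head), ttk (Tramtrack), Stat92E and hop. All 8 were found among the 15598 genes listed for each of 8 mRNA-seq libraries. The libraries came from wild-type embryos, the offspring of w1118 parents (the strain is spelled WIII8 in the sample labels), aged 0–0.5, 1–2, 2–3, 3–4 and 4–5 h, and from maternal NSUN2 knockout embryos aged 0–0.5, 2–3 and 4–5 h. Values are listed below in that order of age. The knockout embryos had NSUN2-/- mothers, which carry a CRISPR/Cas9-made mutation in this RNA m5C methyltransferase, and w1118 fathers. Because the gene is X-linked, male offspring were mutant themselves and female offspring were heterozygous, and the sexes were not separated. Each library was made from pooled whole embryos and poly(A)-selected RNA, and each condition had 1 library.

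The Drosophila embryo starts with mRNA made by the mother and later transcribes its own genome. Zelda opens chromatin at early enhancers and is known as the main activator of the first zygotic genes. GAGA factor, Pipsqueak and CLAMP bind GA-rich DNA, and GAGA factor keeps chromatin accessible as zygotic transcription widens. Grainy head is a pioneer factor of epithelial genes, and Tramtrack is a repressor that can hold back early segmentation genes. Hop is the JAK kinase and Stat92E the STAT factor of the JAK/STAT pathway, through which the mother also contributes to zygotic transcription.

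Levels are FPKM, fragment numbers scaled by transcript length and by library size, as Cufflinks gave them, with its interval for the uncertainty within a library. Fragment counts were not given and the depth is therefore unknown. With 1 library per condition there is no replicate check and no p-value, and "separate" below means only that 2 Cufflinks intervals did not overlap. Nsun2, the mutated gene, was at 4.91%, 7.88% and 17.9% of its wild-type FPKM in the knockout libraries, from youngest to oldest, with separate intervals each time. Of all genes, 6733 to 8148 per library had FPKM of at least 1. The wild-type 3–4 h library stood apart. There, 8 markers of differentiated late embryos, mostly muscle genes, summed to 163 FPKM, against 24.4 in wild type at 4–5 h and 0.335 to 9.06 in the other libraries. Act57B, a muscle actin, made up 87.2 of the 163, while the cuticle genes Lcp4 and Cpr65Av were at 0. Markers of maternal germ line RNA (bcd, nos, osk, gcl, smg and pgc) summed to 1867, 1056, 290, 119 and 100 FPKM along the wild-type course and to 1912, 1052 and 571 in the knockout. Of 12 ovarian follicle cell markers, 5 to 10 were at 0 in each library, and Cp15 in the knockout at 2–3 h reached 11.7 FPKM. What part these differences in embryo age and content play in the values below was not tested. A changed FPKM in whole embryos cannot be divided into fewer cells expressing a gene and less RNA per cell.

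zld (chromosome X, 19660978 to 19677682 on BDGP5) kept a nearly flat level as deposited. Its FPKM was 16.7, 13.7, 14.8, 16.5 and 18.8 in the 5 wild-type libraries, from youngest to oldest, and 13.4, 17.5 and 18.7 in the 3 knockout libraries. The highest library was only 1.41-fold above the lowest, the narrowest span of the 8 genes. The Cufflinks half-width was 5.01% to 5.74% of each value. The flat course depends on the scaling. From 2–3 h to 3–4 h in wild type the log2(FPKM + 1) change of zld was 0.15 as deposited. It was -0.32 under median-of-ratios scaling and -0.70 under quantile normalization. The knockout was 1.25-fold lower at 0–0.5 h and 1.18-fold higher at 2–3 h with separate intervals, and the intervals overlapped at 4–5 h.

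Trl (3L, 14741029 to 14754149), which encodes GAGA factor, behaved otherwise. Wild-type FPKM was 20.9, 17.3 and 12.1 in the embryos up to 3 h old, then 92.5 and 58.6. Knockout FPKM was 42.7, 76.7 and 66.1. The 3 early wild-type libraries were therefore the 3 lowest of the 8, and the knockout libraries lay above them at every age, including the youngest embryos. At 2–3 h the knockout level was 6.34 times the wild-type level, and pairing the opposite ends of the intervals gave 5.60 to 7.22. A pair of annotated genes shares part of the locus on the same strand, and the authors' tables assign them their own values. The larger, CG42507, overlaps Trl by 10034 bp and had FPKM of 8.63 in wild type and 6.51 in the knockout at 2–3 h, and the smaller, CG33260, had 2.79 and 4.70. Any error in splitting fragments among them was not tested.

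psq (2R, 6445393 to 6504785) and CG1832 (2L, 22165720 to 22169143) encode the other GA-rich DNA binding proteins. psq had FPKM of 30.7, 28.7, 32.3, 38.5 and 40.7 along the wild-type course and 24.6, 38.7 and 33.8 in the knockout. Like zld it varied little as deposited, by 1.65-fold over the 8 libraries, with its lowest value in the youngest knockout embryos. CG1832 had 323, 328, 235, 130 and 157 FPKM in wild type and 272, 277 and 245 in the knockout. It was the most abundant of the 8 genes in every library. Wild type at 3–4 h and 4–5 h was lower than all other libraries, and the 3 knockout libraries differed among themselves by only 1.13-fold. An antisense neighbour, CG42748, overlaps CG1832 by 502 bp and had 9.57 to 20.8 FPKM. The library kit marked strand and mapping was strand-specific.

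grh (2R, 13690294 to 13729584) was nearly absent at first. Its FPKM was 0.190, 3.38, 14.3, 23.0 and 17.5 in wild type and 0.0351, 1.07 and 7.47 in the knockout. The lower bound of the youngest knockout value was 0, and intervals of the youngest pair overlapped. At 2–3 h the knockout was 13.4-fold lower and at 4–5 h 2.34-fold lower, so that in the older pairs the knockout had the lower value each time. In the knockout grh ranked last of the 8 genes at all 3 ages.

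ttk (3R, 27539591 to 27561114) had a dip in wild type. FPKM was 12.9, 6.23 and 1.55 in the embryos up to 3 h old, then 40.6 and 21.8, a span of 26.1-fold. In the knockout it was 14.0, 10.4 and 9.33, a far narrower span. The dip and the high late values were both missing from the 3 knockout ages: the knockout was 6.73-fold higher at 2–3 h and 2.33-fold lower at 4–5 h, both with separate intervals. No knockout library was made at 1–2 h or 3–4 h.

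Stat92E (3R, 16361405 to 16378034) was the second most abundant gene of the set in every library but wild type at 3–4 h. It had 195, 207, 153, 62.0 and 70.2 FPKM in wild type and 168, 188 and 140 in the knockout. Its course resembled that of CG1832, with the lowest values in wild type at 3–4 h and 4–5 h, and at 4–5 h the knockout was 2.00-fold higher. hop (X, 11254932 to 11262130) had 25.7, 17.4, 11.3, 15.4 and 10.2 FPKM in wild type and 22.6, 33.4 and 13.8 in the knockout. The knockout value at 2–3 h was 2.96-fold above wild type of that age and above every wild-type library. The neighbouring gene Pa1, whose strand was not found, meets hop over 31 bp. It had 11.1 FPKM in wild type and 77.7 in the knockout at 2–3 h. At 0–0.5 h it had 65.5 and 139, where hop had 25.7 and 22.6. Any error in splitting fragments between Pa1 and hop was not tested.

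**Figure D1:**
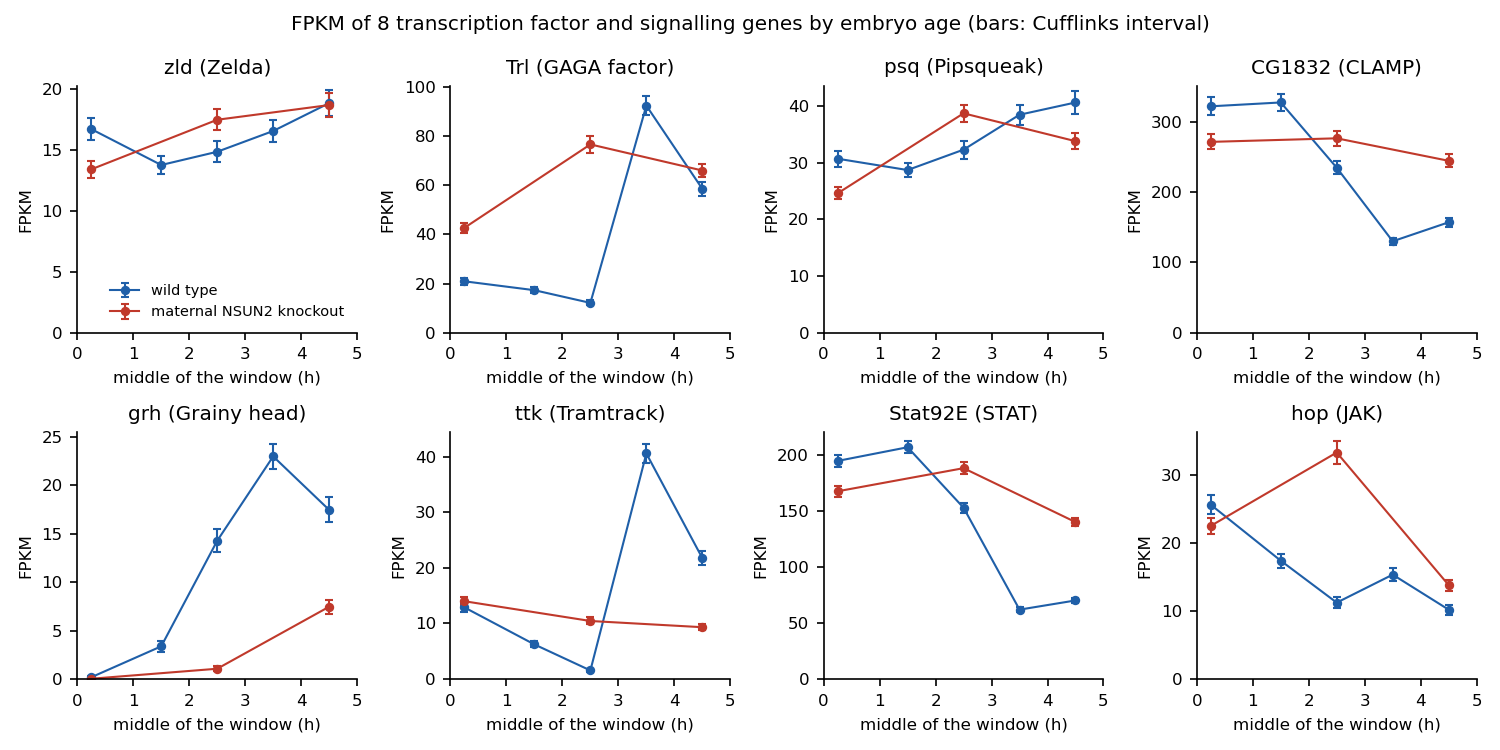
FPKM as deposited of the 8 genes (vertical axes, linear and from 0, a separate scale in each panel) against the middle of the collection window in hours, for 5 wild-type libraries (blue) and 3 maternal NSUN2 knockout libraries (red); bars are Cufflinks intervals within a library. Trl and ttk are low in wild type at 2–3 h (12.1 and 1.55) and higher in the knockout of that age (76.7 and 10.4). grh is lower in the knockout, and zld stays between 13.4 and 18.8.

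The order of the 8 genes changed with age mainly below the top 2, and in wild type at 3–4 h Trl took the second place. In wild type at 0–0.5 h it ran CG1832, Stat92E, psq, hop, Trl, zld, ttk and grh, with all neighbours separate. In wild type at 2–3 h, zld, grh, Trl and hop followed psq, and the intervals of neighbours among these 4 overlapped. In the knockout at 2–3 h the order was CG1832, Stat92E, Trl, psq, hop, zld, ttk and grh, again with all neighbours separate. Trl ranked below psq and hop in the youngest wild-type embryos and above both in the youngest knockout embryos.

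Changes between 2 libraries were taken as differences of log2(FPKM + 1), and a gene passed the limit where this was at least 1, a 2-fold change of FPKM + 1. This scale understates changes of weakly expressed genes. Only genes that reached FPKM 1 in either library were counted. From 0–0.5 h to 1–2 h in wild type, grh passed the limit upwards (1.88) and none of the 8 passed downwards, while 4.39% of all genes passed upwards and 8.21% downwards. From 1–2 h to 2–3 h, grh was again higher (1.80) and ttk lower (-1.50), and 7.95% of all genes passed upwards and 16.3% downwards. From 2–3 h to 3–4 h, Trl (2.84) and ttk (4.03) were higher and Stat92E was lower (-1.29). In that step 39.9% of all genes passed upwards and 11.5% downwards, and the median of all genes was 0.64, so 2 of 8 is not above the background share. With wild type at 4–5 h in place of the 3–4 h library with muscle markers, the same 3 genes passed, at 2.19, 3.16 and -1.11, in a step where 34.6% of all genes passed upwards and 12.4% downwards and the all-gene median was 0.52. From 3–4 h to 4–5 h none of the 8 passed, against 0.972% of all genes upwards and 7.67% downwards.

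In the knockout, none of the 8 passed from 0–0.5 h to 2–3 h, whereas 3.79% of all genes passed upwards and 18% downwards. The nearest was grh, at 0.998 (from 0.0351 to 1.07 FPKM), followed by Trl at 0.83. From 2–3 h to 4–5 h grh was higher (2.03) and hop lower (-1.21), and 15.5% of all genes passed upwards and 12.6% downwards.

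The genotypes were compared at the 3 ages they share. At the youngest age most RNA is known to be maternal, though early zygotic RNAs were already detected. Among the 29 early zygotic genes described below as Zelda targets, differences went in both directions, and the largest were downwards. sisA had 34.1 FPKM in wild type and 9.30 in the knockout, and Ilp4 had 15.9 and 5.16. ac had 10.7 and 3.51, and sc 25.1 and 10.9. The largest upwards were smaller on the log2(FPKM + 1) scale, with 6.83 and 13.6 for slam and 3.91 and 6.13 for Sry-alpha. Counts of this list past the limit at this age are not given here. At 0–0.5 h, none of the 7 genes counted passed the limit, against 9.51% of all genes upwards and 1.85% downwards, and grh was under FPKM 1 in both libraries. Trl lay just inside the limit, at 0.997, although its plain FPKM ratio was 2.04 (1.81 to 2.31 by the interval ends). zld, psq, CG1832, Stat92E and hop were lower in the knockout by 1.14-fold to 1.25-fold with separate intervals. Their log2 differences of -0.31 to -0.18 stayed negative under each of the 3 other scalings. Of all genes, 25.8% were lower and 43.2% higher with separate intervals. ttk was at 0.11 with overlapping intervals, and below 0 under median-of-ratios scaling (-0.05) and quantile normalization (-0.27).

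At 2–3 h, 3 of the 8 genes passed upwards in the knockout, Trl (2.57), ttk (2.17) and hop (1.49), and grh passed downwards (-2.88). Of all genes 33.1% passed upwards and 11.3% downwards. The median over the 8 genes was 0.28 and that over all genes was 0.43. Against this all-gene median, Trl was 2.14 higher, ttk 1.74 higher and hop 1.06 higher, and grh was 3.31 units below it. zld (0.22), psq (0.25), CG1832 (0.24) and Stat92E (0.30) had separate, higher intervals, as did 55.7% of all genes, but lay below the all-gene median. All 4 turned negative under median-of-ratios scaling (-0.22, -0.20, -0.23 and -0.17), and zld and psq also under quantile normalization (-0.53 and -0.35). Median-of-ratios scaling moves the all-gene median by -0.42. The same age had a maternal germ line marker sum of 290 FPKM in wild type and 1052 in the knockout, and all 6 markers passed the limit upwards.

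At 4–5 h, grh (-1.12) and ttk (-1.14) passed downwards, and none of the 8 passed upwards, against 11.9% of all genes upwards and 8.03% downwards. Stat92E was just inside the limit at 0.99, and CG1832 was at 0.64. zld (-0.01), Trl (0.17), psq (-0.26) and hop (0.40) were closer to the wild-type levels. The all-gene median was -0.19, and the germ line marker sum was 100 FPKM in wild type and 571 in the knockout.

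**Figure D2:**
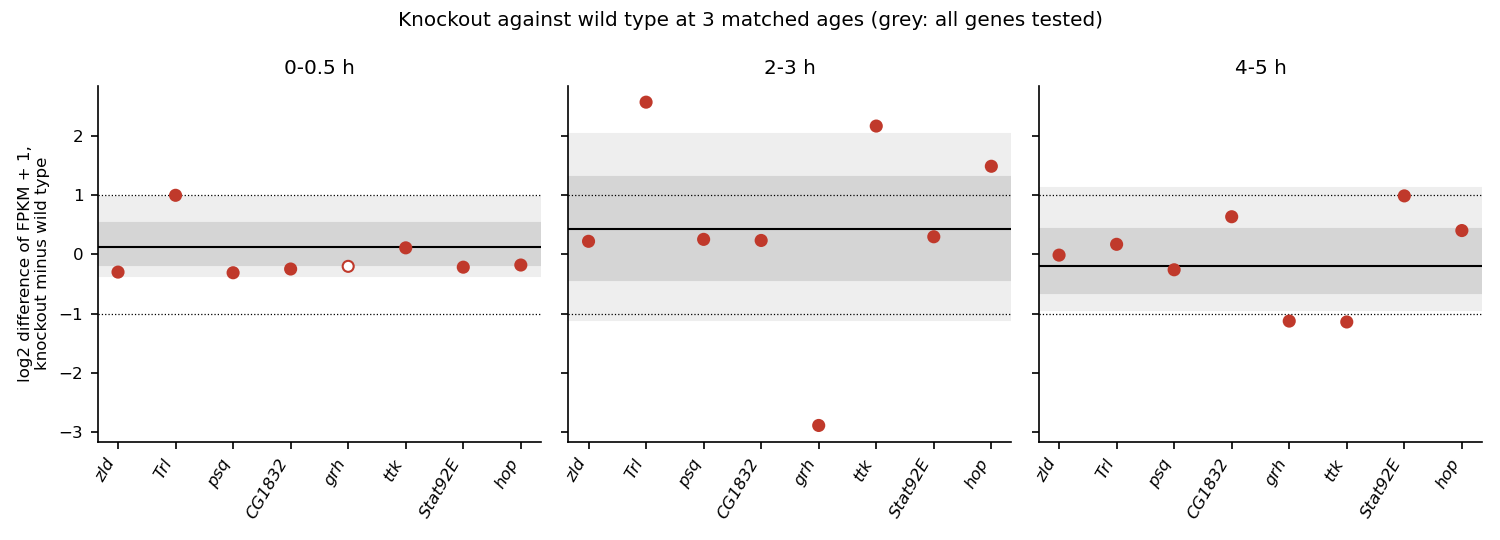
Difference of log2(FPKM + 1), knockout minus wild type, for the 8 genes at 0–0.5 h, 2–3 h and 4–5 h (1 library against 1 library; the open point is grh, under FPKM 1 in both). Dark and light grey bands hold the middle 50% and 80% of all genes counted. The solid line is their median and the dotted lines mark the limits of 1 and -1. At 0–0.5 h Trl lies just above the light band, which ends at 0.974. At 2–3 h Trl, ttk and grh lie outside the light band, and at 4–5 h grh and ttk lie below it.

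The knockout values were also set beside each wild-type age. Of the 16 values at 2–3 h and 4–5 h, 15 lay within the range of the 5 wild-type libraries, and hop at 2–3 h was the exception. The nearest wild-type age by log2(FPKM + 1) differed among the 8 genes. For the knockout at 2–3 h it was 0–0.5 h for zld, CG1832, grh, ttk, Stat92E and hop, and 3–4 h for Trl and psq. For the knockout at 4–5 h it was 2–3 h for psq, CG1832, grh and Stat92E. For that library it was 4–5 h for zld and Trl, 3–4 h for hop and 0–0.5 h for ttk. A nearest age need not be a distinct match. The interval of zld in the knockout at 2–3 h overlapped 3 wild-type ages (0–0.5, 3–4 and 4–5 h). For grh in the same library, at 1.07 FPKM, wild type had 0.190 at 0–0.5 h and 3.38 at 1–2 h. There the 1 added to FPKM decided which age was nearest. Whether a delay in development accounts for these values was not tested. Against wild type at 1–2 h, the knockout at 2–3 h had 4.44-fold more Trl and 3.17-fold less grh. Against wild type at 2–3 h, the knockout at 4–5 h had 5.46-fold more Trl and 6.01-fold more ttk, while psq and CG1832 overlapped that wild-type library. Against wild type at 3–4 h the direction turned for both, with Trl 1.40-fold and ttk 4.35-fold lower in the knockout at 4–5 h, while grh was 3.08-fold lower and Stat92E 2.26-fold higher. For Trl, grh and ttk no wild-type interval overlapped the knockout value at either age. Shares over all genes are not given here for this overlap or for the range above, so neither is read as particular to these genes.

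The RNA level of zld can be read beside 29 early zygotic genes described as targets of Zelda, whose protein was not measured. In wild type the list's median log2(FPKM + 1) was 2.13, 3.78, 3.46, 4.51 and 3.27 in order of age, as deposited, whereas zld stayed between 3.88 and 4.31. From 0–0.5 h to 1–2 h, 18 of 27 counted targets were higher past the limit and 0 lower, against 4.39% and 8.21% of all genes. Their median was 1.75 against -0.24 over all genes. Z600, an inhibitor of mitosis, went from 17.5 to 1116 FPKM and halo, which acts in lipid droplet transport, from 55.4 to 1188. In the knockout, 17 of 25 were higher and 0 lower from 0–0.5 h to 2–3 h, with a median of 1.77 against -0.00. Of all genes, 3.79% were higher and 18% lower in that step.

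Between genotypes at 2–3 h, 14 of the 29 targets were lower and 3 higher in the knockout, against 11.3% and 33.1% of all genes. Their median was -0.89 against 0.43 over all genes, and -1.30, -0.69 and -1.48 under median-of-ratios scaling, equal totals and quantile normalization. Ilp4, an insulin-like peptide gene, had 541 FPKM in wild type and 40.1 in the knockout, and Z600 had 2047 and 249. The higher ones included nullo, a cellularisation gene, with 11.8 and 42.0 FPKM, and hb, a gap gene with maternal RNA as well, with 4.57 and 14.3. Over the same pair zld differed by 0.22 as deposited, and by -0.22 and -0.53 under median-of-ratios scaling and quantile normalization. At 4–5 h, 3 of 26 targets were lower and 1 higher, against 8.03% and 11.9% of all genes. The higher one was slam, another cellularisation gene (1.04 and 10.3 FPKM). The list median was -0.72 against -0.19 over all genes.

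**Figure D3:**
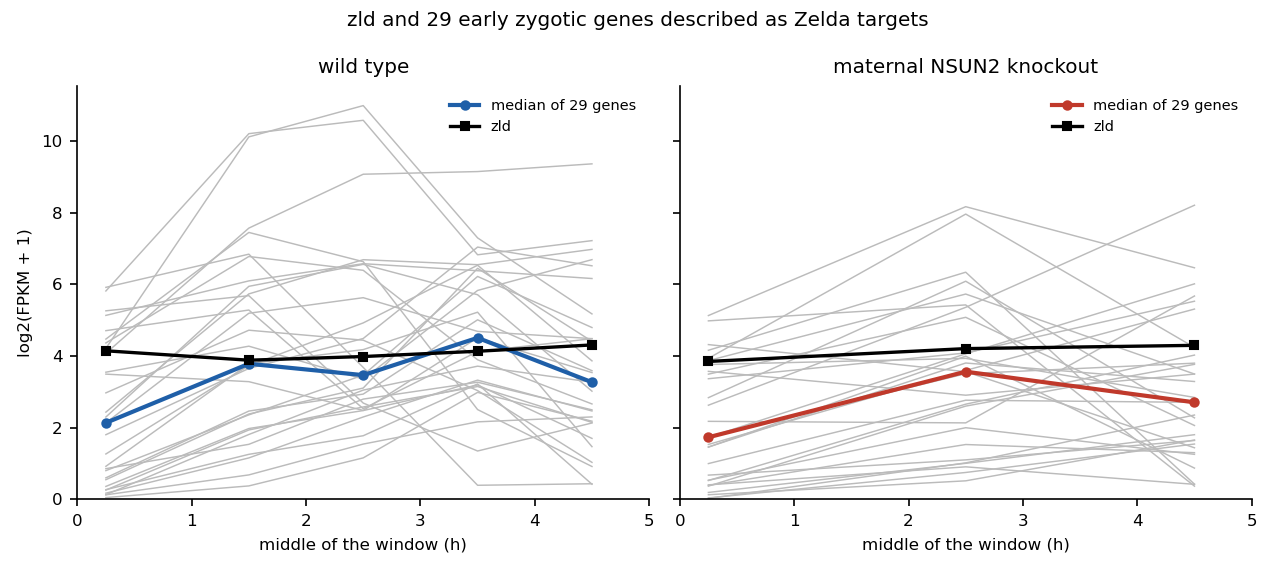
log2(FPKM + 1) of zld (black squares) and of 29 early zygotic genes described as Zelda targets (grey lines, with the median as coloured points) against the middle of the window in hours, in 5 wild-type and 3 knockout libraries. As deposited, zld stays between 3.85 and 4.31 in all 8 libraries. The targets' median goes from 2.13 to 3.78 between the first 2 wild-type libraries. It goes from 1.73 to 3.56 between the first 2 knockout libraries.

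Genes whose products work with GAGA factor, Zelda and Tramtrack formed a list of 16, among them the NURF chromatin remodelling subunits E(bx), Iswi, Nurf-38 and Caf1. At 2–3 h, 5 of the 16 were higher in the knockout past the limit and 0 lower, against 33.1% and 11.3% of all genes. Their median of 0.53 was near that of all genes (0.43), and 4 were higher and 5 lower under median-of-ratios scaling. Mi-2, a remodelling ATPase that binds Tramtrack, had 9.51 FPKM in wild type and 39.3 in the knockout (1.94), and pzg, which encodes a NURF-associated protein, had 9.32 and 30.3. In wild type these 2 genes had the largest differences of the list from 2–3 h to 3–4 h, reaching 84.6 and 76.9 FPKM, as Trl and ttk reached 92.5 and 40.6. nej, the CBP coactivator, was the lowest of the list in the knockout at 2–3 h (5.78 and 2.40 FPKM, -0.99). At 0–0.5 h none of 15 passed, against 9.51% of all genes upwards and 1.85% downwards. At 4–5 h ebi, which acts in Tramtrack degradation, was higher (1.86) and phyl, an adaptor for the same degradation, lower (-1.15). Of all genes, 11.9% passed upwards and 8.03% downwards at that age.

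Among 20 other transcription factor genes with maternal RNA or early roles, 7 of 18 counted were higher and 1 lower in the knockout at 2–3 h, near the 33.1% and 11.3% of all genes, with a median of 0.51 against 0.43. dl, the dorsoventral factor Dorsal, had 0.889 FPKM in wild type and 13.6 in the knockout, and bcd, the anterior determinant, had 12.4 and 57.6. Unlike ttk and Trl, neither of these 2 came back in wild type at 3–4 h (1.18 and 6.65 FPKM). pan, the TCF of Wnt signalling, was lower (22.5 and 7.60). At 4–5 h, 4 of 20 were higher and 2 lower, against 11.9% and 8.03% of all genes. The list median was -0.38 against -0.19 over all genes, and bcd (2.65) and dl (1.97) were again the highest.

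For grh, the comparison list held opa, which acts as a pioneer factor after Zelda, and 7 genes described as Grainy head targets in epidermis. opa had 0.0147, 1.38, 7.89, 12.3 and 4.52 FPKM in wild type and 0.0349, 0.698 and 2.14 in the knockout. Like grh it was lower in the knockout at 2–3 h, by -2.39 on the log2 scale. Of the 7 others, Ddc, ple and e stayed at or under 0.147 FPKM in all 8 libraries. Fas3, a junction protein gene, had 14.7 FPKM in wild type at 3–4 h, 4.19 in wild type at 4–5 h and 0.549 in the knockout at 4–5 h. At 4–5 h, 2 of 5 counted genes of the list were lower in the knockout and 0 higher, against 8.03% and 11.9% of all genes. Their median was -0.81 against -0.19 over all genes.

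The rest of the JAK/STAT pathway formed a list of 12. Of the ligand genes, os (Unpaired) had 0.179, 1.67, 1.46, 4.43 and 3.91 FPKM in wild type and 0.0850, 0.822 and 1.64 in the knockout, upd2 was at most 1.76, and upd3 was at or under 0.0590 in every library. The receptor gene dome had 4.19 to 7.78 FPKM, with 4.89 in wild type and 7.56 in the knockout at 2–3 h. The FPKM of each ligand gene was thus below those of hop and Stat92E in every library. Socs36E, a feedback inhibitor that is itself a pathway target, had 0.0368, 1.21, 4.85, 8.79 and 6.19 FPKM in wild type and 0.0291, 0.819 and 2.68 in the knockout.

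At 2–3 h, 5 of 9 counted pathway genes were higher and 1 lower in the knockout, against 33.1% and 11.3% of all genes. Their median was 1.24 against 0.43 over all genes, and 3 were higher and 1 lower under median-of-ratios scaling. The inhibitor genes went in both directions. Ptp61F, a phosphatase acting on Hop and Stat92E, was the highest (27.9 and 198 FPKM, 2.78), and Socs36E was the lowest (-1.69). Ptp61F was higher in the knockout at each matched age, with 131, 198 and 134 FPKM against 63.0, 27.9 and 54.9. Su(var)2-10, the PIAS inhibitor gene, had 184, 202 and 161 FPKM as deposited in the knockout, all above the 74.6 to 122 of the 5 wild-type libraries. At 4–5 h, 2 of 10 genes were higher and 0 lower, against 11.9% and 8.03% of all genes. Their median was -0.12 and became 0.19 under quantile normalization.

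**Figure D4:**
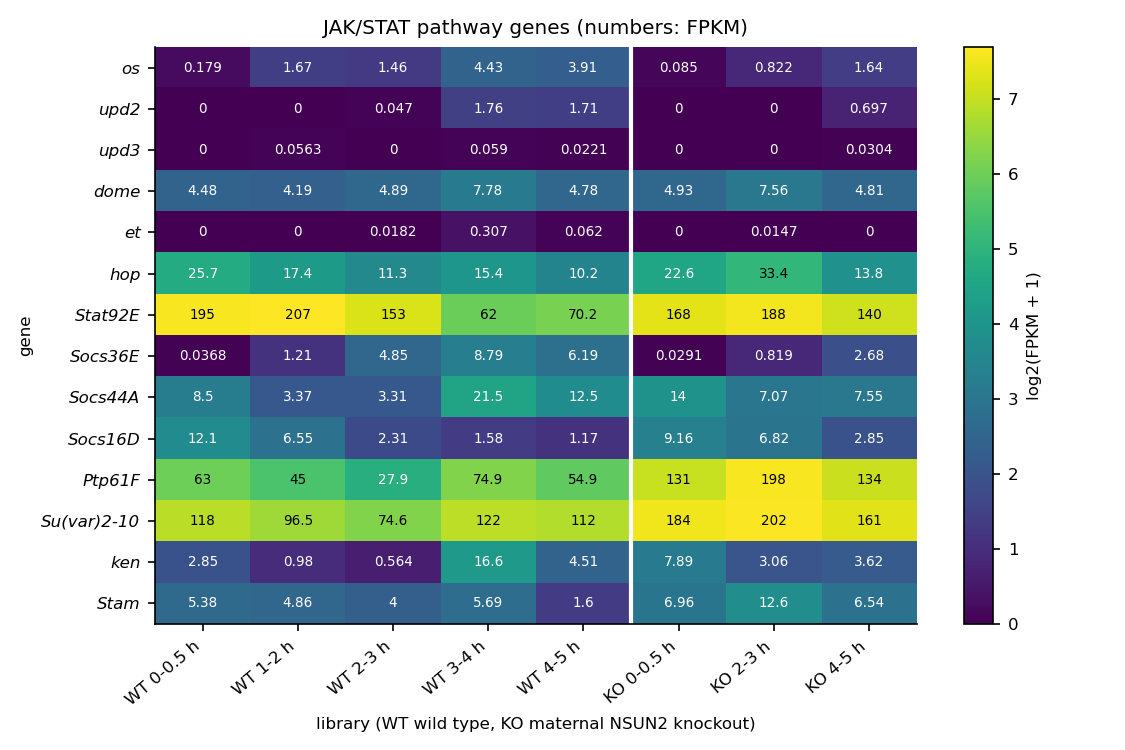
FPKM (printed in each cell) of 14 JAK/STAT pathway genes, hop and Stat92E included, in 5 wild-type (WT, left) and 3 maternal NSUN2 knockout (KO, right) libraries, coloured by log2(FPKM + 1). Stat92E, Su(var)2-10 and Ptp61F are the most abundant, the ligands os, upd2 and upd3 reach at most 4.43, 1.76 and 0.0590, and Ptp61F reaches 198 FPKM in the knockout at 2–3 h.

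Pearson's r of log2(FPKM + 1) was taken over the 8 libraries and is given as a description. It was used to seek the genes with the most similar pattern, among 6284 genes with FPKM of at least 10 in some library. For Trl these were CG10103, CG3198 and fl(2)d, a subunit gene of the m6A methyltransferase complex (r of 1.00 each after rounding), and 133 genes reached r of 0.95. For Stat92E they were PRL-1, par-6 and CG32016, with 486 genes at 0.95 or above, and for CG1832 they were CG4282, Rcd1 and CG5482, with 333. grh was nearest to CG4688, sog and sprt, with 172. ttk was nearest to rap, Kdm2 and gammaCop, with 37, and hop to oxt, bbc and CG2519, with 21. The genes that were flat as deposited had few such neighbours. psq was nearest to dbo (0.95), CG34441 (0.92) and osa (0.89), and zld to gfzf (0.88), dbo (0.88) and osa (0.86), with no gene at 0.95. Within the set, CG1832 and Stat92E were the most alike (0.99), zld and psq came to 0.82, and grh and hop ran oppositely (-0.84).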

How the data were processed

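The authors removed adapters with cutadapt 1.13, mapped stranded read pairs with TopHat2 to BDGP5 and its gene models, and deposited FPKM values from Cufflinks with interval bounds, 1 table for each of 8 conditions. The paper's methods mention averaging of replicate FPKM values. The tables do not say whether this applies to them, and each is treated as 1 library. FPKM is relative to the fragments of each library. Spike-in RNA was added to the samples, but 0 spike-in entries are listed, so no spike-in scaling was run.

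From these values, log2(FPKM + 1) differences were computed in 9 comparisons, with FPKM of at least 1 in either library and a limit of 2-fold. No test was possible. All 8 genes are named, with 3 most similar genes each and, from each list, the genes with the largest differences (any gene for JAK/STAT). Ddc, ple and e were named after their values were seen. The genes and lists were chosen with earlier results of these data known. Gene symbols and coordinates are the tables' own. Promoter motifs were not analysed here. Finding genes past the limit was tried on a simulated pair of libraries, where only the result under median-of-ratios scaling had to reach a set recovery. The other steps were not simulated. Python 3.11.15, pandas 2.3.3, numpy 2.4.6 and matplotlib 3.10.9 were used. Alternatives were pseudocount, filter, scaling and fold limit, and the 4–5 h library in place of 3–4 h, chosen after seeing the data.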

Additional observations from a re-analysis of the deposited data

Results flagged for a closer look

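Some genes moved in opposite directions in the 2 genotypes over the same step, with separate Cufflinks intervals in each. With 1 library per condition the difference was not tested, and each difference below was taken by subtracting the change of log2(FPKM + 1) in wild type from that in the knockout.

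From 0–0.5 h to 2–3 h, 4 of the 8 genes were lower in wild type and higher in the knockout, as were 11.7% of all genes that reached FPKM 1 in any of the 4 libraries. For hop the changes were -1.12 and 0.54, a difference of 1.67, and for Trl they were -0.74 and 0.83, a difference of 1.57. For zld they were -0.16 and 0.36, a difference of 0.52, and for Stat92E -0.35 and 0.17, a difference of 0.51. The wild-type change of zld became positive under median-of-ratios scaling (0.25) and quantile normalization (0.61), that of Stat92E under median-of-ratios scaling (0.09) and that of Trl under quantile normalization (0.11), so only hop kept opposite directions under all 3 other scalings.

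From 2–3 h to 4–5 h, 2 of the 8 genes were higher in wild type and lower in the knockout, as were 17.5% of all genes counted the same way. For Trl the changes were 2.19 and -0.21, a difference of -2.40, and for psq 0.32 and -0.19, a difference of -0.51. Under quantile normalization the knockout changes of Trl and psq became 0.04 and 0.05, and under median-of-ratios scaling the wild-type change of psq became -0.09.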

How the results depend on the processing

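The number of the 8 genes past the limit moved by over 1.5 times in the settings given here. In wild type from 0–0.5 h to 1–2 h it was 1, and 2 with a pseudocount of 0.1, with equal totals or with a 1.5-fold limit (ttk added), and 0 with a minimum FPKM of 5. With a 1.5-fold limit it went from 3 to 5 from 2–3 h to 3–4 h, from 0 to 2 from 3–4 h to 4–5 h, and from 2 to 4 between genotypes at 4–5 h. In the knockout from 0–0.5 h to 2–3 h it was 0, and 1 with a pseudocount of 0.1 or equal totals (grh), and 3 with quantile normalization or a 1.5-fold limit (Trl, psq and grh). Between genotypes at 0–0.5 h it was 0, and 1 (Trl) with a pseudocount of 0.1, equal totals or a 1.5-fold limit. Between genotypes at 2–3 h, Trl, ttk, hop and grh made up a count that no setting moved by over 1.5 times.

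Of 71 single differences, 9 changed sign under median-of-ratios scaling, 4 under equal totals and 14 under quantile normalization, none of them past the limit. The share of upward calls among all calls between genotypes at 2–3 h was 74.5% as deposited, 53.2% under median-of-ratios scaling and 53.9% under quantile normalization. From 2–3 h to 3–4 h in wild type it was 77.6%, 58.1% and 51.4%, from 0–0.5 h to 1–2 h 34.8%, 53.0% and 70.2%, and from 1–2 h to 2–3 h 32.7%, 45.3% and 47.7%. Between genotypes at 0–0.5 h it was 83.7%, 72.4% and 61.9%. Quantile normalization moved it from 11.3% to 26.7% for the last wild-type step and from 17.4% to 38.5% for the first knockout step, and equal totals moved it from 55.1% to 43.8% for the last knockout step. No paired analysis was possible because each condition has 1 library, and for the same reason no library could be left out within a group. The intervals limit grh most, where the half-width in the knockout was 145% of the value in the youngest embryos and 22.5% at 2–3 h.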
